A study of Homo sapiens with 17 samples.

Results

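MIR21, MIR92B, MIR146B, MIR151A, MIR185 and MIR330 are human microRNA hairpins that each stand alone in the genome, with 0 other annotated microRNA genes within 10000 nt of any of the 6. They were chosen with earlier results of the same tables known, and their log2 ratios were among the values behind the choice. Their values and counts are therefore given as a description, and no test was run on them. The members are the small RNA alignments of 18 to 26 nt that lie wholly inside the 6 hairpin windows on the hairpin's strand. In any of 8 tables, 397 such alignments were listed, of 5933012 alignments of that length in all. Of these 397, 175 were listed in every table, and 145 had a ratio above 0 in all 8 tables, of 11342 alignments with such ratios across the genome. Those 145 fell on 12 hairpin arms, and each arm was the source of at least 3 of them.

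The libraries were small RNA from K562, a human erythroleukemia cell line, and all carried the genotype Drosha_shRNA_KD, a short hairpin RNA against Drosha, the controls included. Cultures with 1 µg/mL doxycycline (Dox) were set beside cultures with water, as 2 pairs at 3 d (replicates 1 and 3), 3 pairs at 13 d and 3 pairs at 31 d. Of the 17 libraries, 8 were Dox, 8 were water and 1 was untreated; the untreated library was not analysed here. The labels do not say whether the cells are 1 clone or which promoter drives the hairpin, and the tables carry no gene names, so that neither the cell line nor the depletion of Drosha could be checked against its genes. In such bulk cultures, fewer cells of a kind and less RNA per cell cannot be told apart.

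Drosha is the nuclease of the Microprocessor complex, which crops a hairpin out of a primary transcript in the nucleus. Dicer then cuts off the loop, and 1 strand of the remaining duplex is usually kept by an Argonaute protein and guides it to messenger RNAs through the seed, bases 2 to 8 of the microRNA. The strand from the left arm of the hairpin is called 5p and that from the right arm 3p. The first cut of Drosha sets the 5′ end of a 5p microRNA and the 3′ end of a 3p microRNA, while Dicer sets the other 2 ends. In a cluster, several hairpins share a primary transcript and neighbouring hairpins can influence each other's cropping. A solitary hairpin has no such neighbour.

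Each of the 8 tables sets the Dox library of a pair against its water library and gives 1 deposited ratio per alignment. Which of the 2 libraries is the numerator is stated in neither the tables nor the labels, so values are given as log2 of numerator over denominator, with 0 for equal values. If the numerator is the Dox library, a value below 0 means less of that RNA with Dox; it is assumed that the 8 tables share 1 direction. The value of an arm in a table is the median log2 ratio over its alignments with a ratio above 0 in all 8 tables. For comparison, all alignments of 18 to 26 nt with such ratios were merged into islands where they overlapped, and the 991 islands with at least 3 alignments got a median in the same way; the 12 arms are among them. The tables listed 871027 to 3428554 alignments each, and the ratio was 0 for 79.7% to 94.0% of those of 18 to 26 nt. The median log2 ratio of all islands was 0.71 and 1.76 in the 3 d tables, then 0.42, -0.44 and -1.16 at 13 d, and -0.14, -1.02 and -0.74 at 31 d. Whole tables were thus shifted relative to each other. An island on chr5:31511239-31511265 (hg19, plus strand), to which the tables give no name, was the highest in 6 of 8 tables and above 0 in 8 of 8, at 5.75 to 10.74. A centred value is the log2 ratio minus the table's island median. Read numbers per library were not used here, so the depth is unknown and no counting interval is given.

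The mature sequences of the arms with an entry in RefSeq (GRCh38.p14) are shown because they identify the RNAs measured and the seeds through which they act, which are in capitals. All were placed in the hg19 windows by their offset in hairpins of the same length.
miR-21-5p: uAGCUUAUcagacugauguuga
miR-92b-5p: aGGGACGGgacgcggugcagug
miR-92b-3p: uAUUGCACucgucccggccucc
miR-146b-5p: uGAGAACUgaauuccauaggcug
miR-146b-3p: gCCCUGUGgacucaguucuggu
miR-185-5p: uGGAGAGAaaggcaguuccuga
miR-185-3p: aGGGGCUGgcuuuccucugguc
miR-330-5p: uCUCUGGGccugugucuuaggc
miR-330-3p: gCAAAGCAcacggccugcagaga
The 9 seeds shown differ from each other. In the RefSeq table, the seed of miR-92b-3p is also that of 5 other mature microRNAs, namely miR-25-3p, miR-32-5p, miR-363-3p, miR-367-3p and miR-92a-3p. The seed of miR-146b-5p is shared with miR-146a-5p and miR-7153-5p, that of miR-21-5p with miR-590-5p, that of miR-185-5p with miR-4306 and that of miR-330-5p with miR-326. For the other 4 of the 9, miR-92b-5p, miR-146b-3p, miR-185-3p and miR-330-3p, the table holds no second mature microRNA with the seed. The share of G and C ran from 36.4% in miR-21-5p to 72.7% in miR-92b-5p.

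The hairpins differ in where they lie. In GENCODE 29, MIR21 overlaps an exon of a transcript of VMP1, a gene of autophagosome formation, and MIR330 an exon of a transcript of EML2, which encodes a microtubule-associated protein. MIR92B overlaps an exon of the antisense-type gene AC234582.1. MIR185 lies in an intron of TANGO2, and MIR151A in an intron of PTK2, the gene of focal adhesion kinase. MIR146B overlaps no other gene. All 5 host genes run on the hairpin's own strand. The nearest other microRNA gene was MIR642A at 35.8 kb from MIR330, and MIR3618 at 52.5 kb from MIR185; for the other 4 hairpins the distance was 151.1 to 1053.6 kb.

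At 3 d, all 12 arms had a log2 ratio above 0 in both tables, and 0 of 12 were below 0 in both. Over all islands, 60.8% were above 0 and 20.0% below 0 in both tables. At 13 d, 10 of 12 arms were below 0 in all 3 tables, all but the 2 arms of MIR146B, and 0 were above 0 in all 3; over all islands the shares were 39.2% below and 22.6% above. At 31 d, 9 of 12 arms were below 0 in all 3 tables (8 when alignments had to be above 0 only in the 31 d tables) and 1, miR-146b-3p, was above 0 in all 3, with 43.7% and 19.2% of all islands. Since the arms were chosen on these ratios, nothing is read from their counts against those shares. The median of the 12 arm means was 1.47 at 3 d, then -1.97 at 13 d and -1.63 at 31 d, beside 1.26, -0.35 and -0.59 for all islands.

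**Figure D1:**
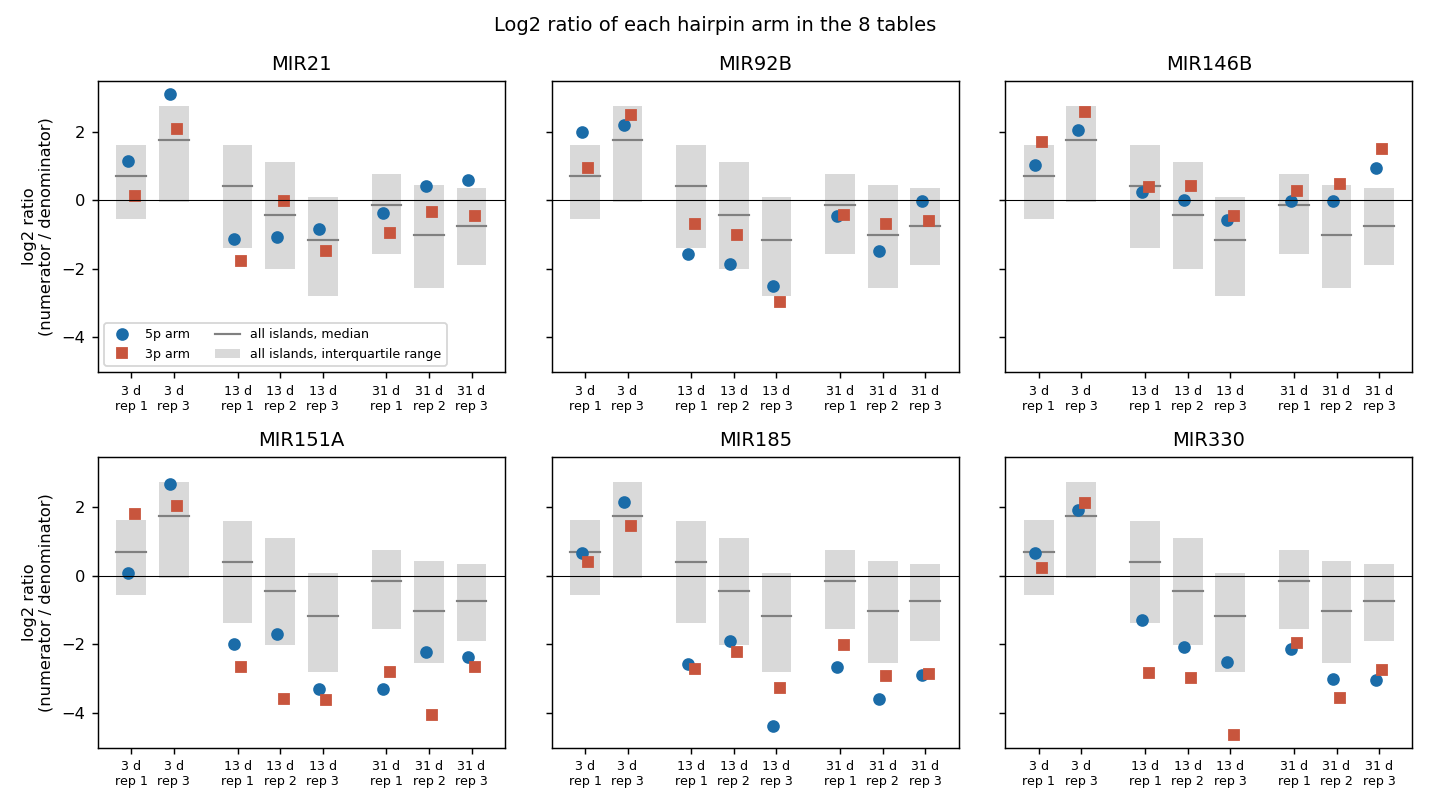
Log2 ratio (numerator over denominator) of the 5p arm (circles) and 3p arm (squares) of each hairpin in the 8 tables, with the median (line) and interquartile range (grey bar) of the 991 islands of that table. All 12 arms are above 0 at 3 d, and both arms of MIR151A, MIR185 and MIR330 are below -1 in all 6 tables of 13 d and 31 d.

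The hairpins differed in level at 13 d and 31 d, with ranges that overlapped between neighbours. Both arms of MIR151A, MIR185 and MIR330, 6 of 12 arms, had a log2 ratio below -1 in all 6 later tables, as did 22.6% of all islands. No arm of MIR21, MIR92B or MIR146B did. By the mean of both arms over the 6 later tables, the order of the hairpins was MIR151A at -2.86 ± 0.43 (SD, n = 6 tables), MIR185 at -2.83 ± 0.64, MIR330 at -2.73 ± 0.63, MIR92B at -1.19 ± 0.87, MIR21 at -0.62 ± 0.61 and MIR146B at 0.26 ± 0.56. MIR151A was below MIR185 in 2 of 6 tables and MIR185 below MIR330 in 3 of 6, so that these 3 hairpins did not differ beyond their spread. MIR330 was below MIR92B in 6 of 6 tables, by -1.54 ± 0.71 on average. MIR92B was below MIR21 in 4 of 6 tables, by -0.58 ± 0.76, within the spread. MIR21 was below MIR146B in 6 of 6 tables, by -0.88 ± 0.53. The ranges of all neighbours in this order overlapped across tables. The order of MIR21 and MIR146B rests on medians over all forms of an arm. By the RefSeq form alone, miR-146b-5p had a later mean of -0.94, below the -0.20 of miR-21-5p. The RefSeq form of miR-146b-3p was at 0.13.

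**Figure D2:**
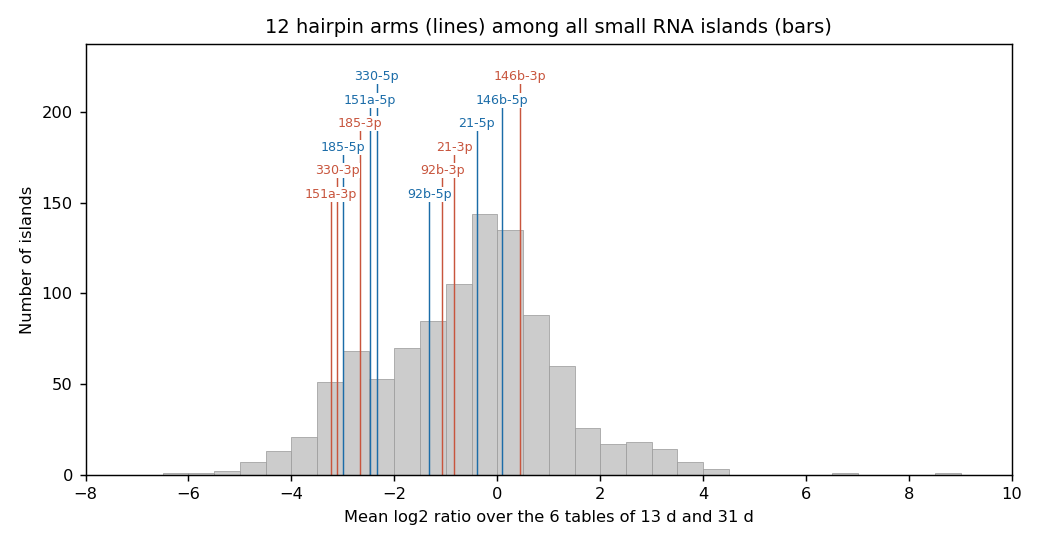
Number of islands (bars) by their mean log2 ratio over the 6 tables of 13 d and 31 d, with the 12 arms as labelled lines, 5p in blue and 3p in red. The 6 arms of MIR151A, MIR185 and MIR330 lie between -3.23 and -2.34, and the 2 arms of MIR146B at 0.09 and 0.44.

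MIR151A is encoded within PTK2 on chr8:141742663-141742752 (hg19, minus strand), and its products have been studied together with focal adhesion kinase in liver cancer cell migration. The 24 alignments of miR-151a-3p gave a log2 ratio of 1.82 and 2.05 in the 3 d tables, -2.66, -3.60 and -3.61 at 13 d, and -2.81, -4.06 and -2.66 at 31 d. Its mean was 1.93 ± 0.17 (SD, n = 2 tables) at 3 d, then -3.29 ± 0.55 (n = 3) at 13 d and -3.18 ± 0.77 (n = 3) at 31 d. It had the lowest later mean of the 12 arms, -3.23, and 7.37% of all islands were lower still. The other arm, miR-151a-5p, gave 0.07 and 2.70 at 3 d, then -1.99, -1.69 and -3.31 at 13 d, and -3.31, -2.22 and -2.37 at 31 d. It rests on 5 alignments and spread more at 3 d than miR-151a-3p, with an SD of 1.85. The 5p arm was above the 3p arm in 5 of 6 later tables, by 0.75 ± 0.95 on average, a difference smaller than its spread.

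MIR185 lies on chr22:20020662-20020743 (hg19, plus strand), within the region of chromosome 22 that is lost in DiGeorge syndrome. The 8 alignments of miR-185-5p gave a log2 ratio of 0.66 and 2.16 at 3 d, then -2.57, -1.91 and -4.39 at 13 d, and -2.65, -3.60 and -2.88 at 31 d. All 6 later values lay below both 3 d values, and the lowest was in the 13 d replicate 3 table. The authors' deposited tables gave the 22 nt alignment equal to the RefSeq miR-185-5p a ratio of 1.23 and 3.86 at 3 d, then 0.158, 0.268 and 0.0530 at 13 d, and 0.167, 0.105 and 0.115 at 31 d. Its partner miR-185-3p, with 5 alignments, gave log2 ratios of 0.40 and 1.45 at 3 d, then -2.72, -2.21 and -3.26 at 13 d, and -2.01, -2.92 and -2.85 at 31 d. The arms differed by less than their spread, with 5p minus 3p at -0.33 ± 0.56 over the 6 later tables. The centred mean of the hairpin at 31 d, -2.18, had an SD of 0.053 over 3 tables, beside 0.47 as deposited and 0.75 at 13 d when centred. Its single arms spread more at 31 d when centred, with SDs of 0.23 for 5p and 0.13 for 3p.

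MIR330 lies on chr19:46142252-46142345 (hg19, minus strand). Its 3p product, miR-330-3p, has been described as a repressor of the cell cycle factor E2F1, and miR-330-5p has the seed of miR-326. The 14 alignments of miR-330-3p gave a log2 ratio of 0.22 and 2.14 at 3 d, then -2.83, -2.99 and -4.63 at 13 d, and -1.97, -3.55 and -2.74 at 31 d. The -4.63 of the 13 d replicate 3 table was the lowest value of any of the 12 arms in any table. The 7 alignments of miR-330-5p gave 0.68 and 1.93 at 3 d, then -1.30, -2.08 and -2.51 at 13 d, and -2.12, -3.01 and -3.04 at 31 d. The 2 arms stood apart at 13 d, where 5p was above 3p in all 3 tables, by 1.52 ± 0.61. At 31 d the 5p arm was above the 3p arm in 1 of 3 tables, with a difference of 0.03 ± 0.45. On the centred scale the later times differed in opposite directions for the 2 arms: miR-330-5p was at -1.57 ± 0.20 at 13 d and -2.09 ± 0.18 at 31 d, and miR-330-3p at -3.09 ± 0.48 at 13 d and -2.12 ± 0.36 at 31 d, with no overlap between the times for either arm.

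MIR92B lies on chr1:155164968-155165063 (hg19, plus strand), and miR-92b-3p belongs by its seed to the miR-25 and miR-92a family, whose other members mostly come from clusters. The 13 alignments of miR-92b-3p gave a log2 ratio of 0.94 and 2.48 at 3 d, then -0.68, -1.01 and -2.98 at 13 d, and -0.44, -0.70 and -0.60 at 31 d. The 6 alignments of miR-92b-5p gave 1.99 and 2.197 at 3 d, then -1.57, -1.85 and -2.50 at 13 d, and -0.47, -1.49 and -0.03 at 31 d. Both arms were below 0 in all 6 later tables and nearer to 0 on average at 31 d than at 13 d. For miR-92b-5p the 2 times did not overlap, with means of -1.97 ± 0.47 at 13 d and -0.66 ± 0.75 at 31 d (SD, n = 3 each). For miR-92b-3p they overlapped as deposited and not after centring, with -1.16 ± 0.63 at 13 d and 0.05 ± 0.32 at 31 d. The authors' deposited tables gave the 22 nt RefSeq miR-92b-5p a ratio of 0.0601 to 0.234 at 13 d and 0.328 to 0.939 at 31 d.

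MIR21 lies on chr17:57918627-57918698 (hg19, plus strand). Its 5p product is among the most abundant microRNAs of many tumour cells and represses PDCD4, an inhibitor of translation. The 24 alignments of miR-21-5p gave a log2 ratio of 1.15 and 3.09 at 3 d, then -1.12, -1.06 and -0.83 at 13 d, and -0.38, 0.42 and 0.58 at 31 d. The 13 d values were tightly grouped, with a mean of -1.01 ± 0.16 (SD, n = 3 tables), and lay below all 3 values of 31 d, whose mean was 0.20 ± 0.52. With each table centred on its islands, the 13 d values were -1.54, -0.62 and 0.33 and overlapped those of 31 d, which were -0.24, 1.45 and 1.32. Only 3 alignments of miR-21-3p had a ratio above 0 in all 8 tables; they gave 0.11 and 2.08 at 3 d, then -1.77, -0.0075 and -1.49 at 13 d, and -0.95, -0.35 and -0.47 at 31 d. The 5p arm was above the 3p arm in 7 of 8 tables, by 1.03 ± 0.01 at 3 d and 0.44 ± 0.75 over the later tables. The island that holds miR-21-5p had 25 alignments, 1 of them reaching beyond the window.

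MIR146B lies on chr10:104196269-104196341 (hg19, plus strand). With its seed-sharer miR-146a-5p, miR-146b-5p is known for dampening innate immune signalling through TRAF6 and IRAK1. The 19 alignments of miR-146b-5p gave a log2 ratio of 1.02 and 2.04 at 3 d, then 0.23, -0.0035 and -0.58 at 13 d, and -0.02, -0.03 and 0.94 at 31 d. The 17 alignments of miR-146b-3p gave 1.69 and 2.59 at 3 d, then 0.39, 0.42 and -0.45 at 13 d, and 0.27, 0.48 and 1.51 at 31 d. These were the highest arms of the 12 over the later tables, at 0.09 ± 0.49 and 0.44 ± 0.63, values within 1 SD of 0. The RefSeq form alone had a later mean of -0.94 for miR-146b-5p and 0.13 for miR-146b-3p. The 5p arm was below the 3p arm in 8 of 8 tables, by -0.61 ± 0.09 at 3 d (n = 2), -0.23 ± 0.16 at 13 d and -0.46 ± 0.15 at 31 d (n = 3 each). In none of the other 5 hairpins did the arms keep 1 order in all 8 tables.

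Across time, the 13 d values of all 12 arms lay below both their 3 d values without overlap, and so did all 12 at 31 d. Among all islands, the values did not overlap, in either direction, for 60.2% between 13 d and 3 d and for 66.2% between 31 d and 3 d. The difference of means, 13 d minus 3 d, ran from -5.22 for miR-151a-3p to -1.64 for miR-146b-5p; that of 31 d minus 3 d ran from -5.11 for miR-151a-3p to -1.23 for miR-146b-5p. With centred values the same differences for miR-146b-5p were -0.02 at 13 d and 0.64 at 31 d, with overlap, so that the direction at 31 d turned. Between 31 d and 13 d, 2 of 12 arms did not overlap, miR-21-5p and miR-92b-5p, beside 20.8% of islands, and both were higher at 31 d. For both arms of MIR151A and MIR185 the mean of 31 d minus that of 13 d was -0.30 to 0.14, and the values overlapped.

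The shift between tables touches these counts. After centring, 1 of 12 arms, miR-185-3p, was below 0 in both 3 d tables, as were 35.7% of islands, and 6 were above 0 in both, as were 35.4% of islands. At 13 d, 8 centred arms were below 0 in all 3 tables beside 36.7% of islands, and 0 were above beside 35.2%. At 31 d, 6 centred arms were below 0 in all 3 tables beside 33.4% of islands, and 2, both of MIR146B, were above beside 31.4%. Centring thus left miR-21-3p and both arms of MIR92B out of the count below 0 at 31 d. The same 6 arms of MIR151A, MIR185 and MIR330 stayed below -1 in all 6 later tables when centred, as did 16.1% of islands. Centred values did not overlap between 13 d and 3 d for 9 arms (71.5% of islands), between 31 d and 3 d for 6 arms (67.6%) and between 31 d and 13 d for 4 arms (21.8%). The 6 arms without overlap between 31 d and 3 d were those of MIR151A, MIR185 and MIR330, with centred differences of -3.24 to -1.65. For the other 6 arms the centred differences of 31 d minus 3 d were -0.89 to 0.64, with overlap, and they were above 0 for miR-21-3p and both arms of MIR146B.

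Each arm was a set of overlapping alignments that differ in their ends, and these forms varied in their ratio. For the 6 arms of MIR151A, MIR185 and MIR330, all 63 alignments had a mean log2 ratio below 0 over the 6 later tables. The same was true of the 22 alignments of miR-21-3p and both MIR92B arms, of 19 of the 24 of miR-21-5p, of 6 of the 19 of miR-146b-5p and of 3 of the 17 of miR-146b-3p. Alignments of 1 arm share most of their bases and come from the same libraries, so they are not independent of each other. No such count over all 11342 alignments with a ratio above 0 in all 8 tables is given here. The median of the later means was -0.44 over all islands, and nothing is read from the counts of alignments.

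**Figure D3:**
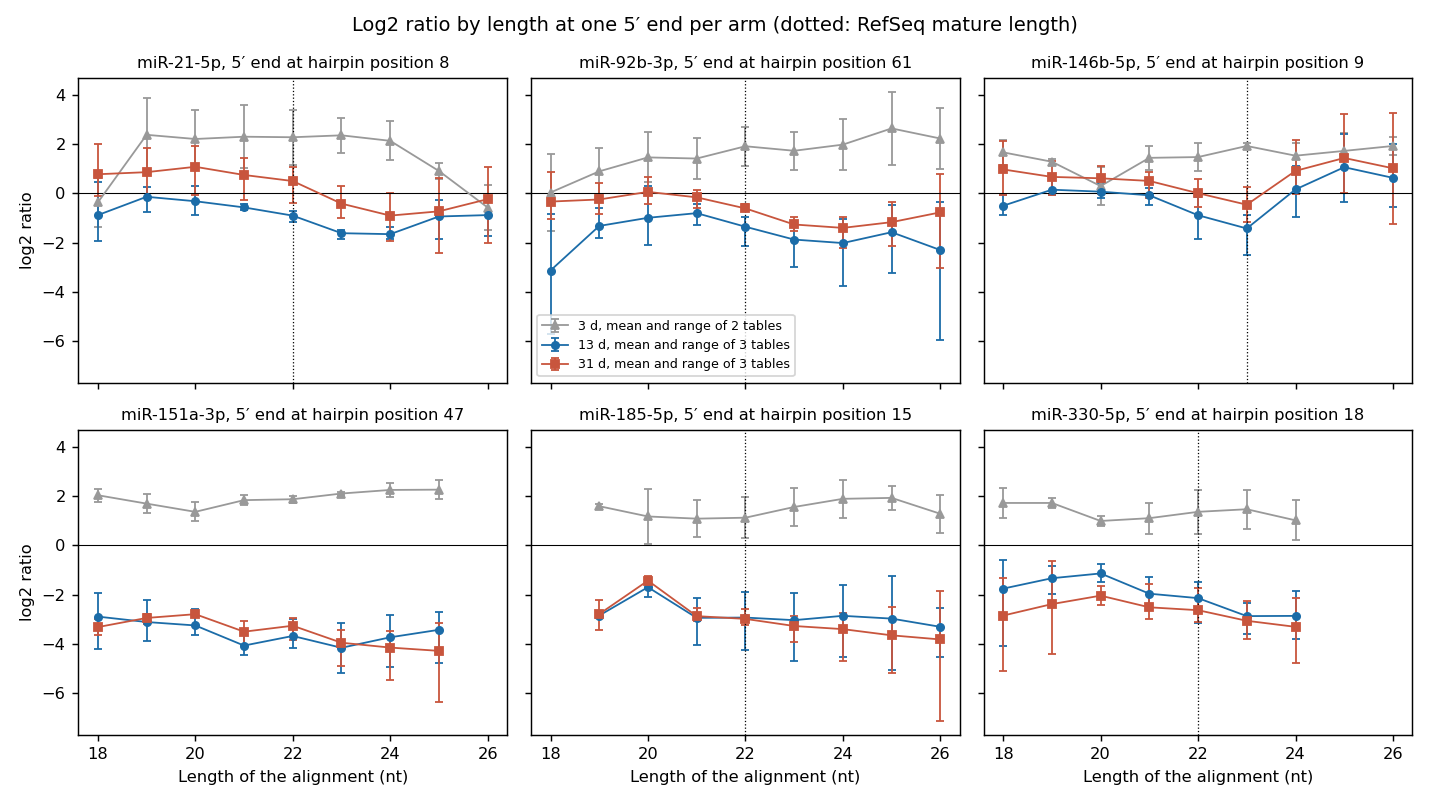
Log2 ratio by alignment length at 1 fixed 5′ end per arm, as mean and range of the tables at 3 d (triangles), 13 d (circles) and 31 d (squares); a dotted line marks the RefSeq mature length where an entry was matched. For miR-146b-5p the later means dip to -1.43 and -0.46 at 23 nt, and stand at 1.06 and 1.44 at 25 nt.

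Among the 9 forms of miR-146b-5p with the RefSeq 5′ end, the 23 nt RefSeq form had the lowest mean over the later tables, -0.94, and the others, shorter and longer, had means of -0.44 to 1.25. The forms of 25 and 23 nt are compared here, a pair chosen after their values were seen. The 25 nt alignment had a log2 ratio of 1.02 and 2.43 at 3 d, then 1.11, 2.42 and -0.34 at 13 d, and 1.08, 0.0039 and 3.23 at 31 d. The 23 nt RefSeq alignment had 1.81 and 2.03 at 3 d, then -0.89, -0.88 and -2.52 at 13 d, and -0.51, -1.14 and 0.27 at 31 d. The 25 nt form was thus above the 23 nt form in 6 of 6 later tables, by 1.15 to 3.30, while at 3 d the difference was -0.80 and 0.40. At 351 other 5′ ends across the tables with both lengths, the median of the mean later difference was -0.23, and 5.98% had the 25 nt form above in all 6 tables. In the authors' deposited tables, the 23 nt form had ratios of 0.541, 0.543 and 0.175 at 13 d and of 0.704, 0.453 and 1.203 at 31 d, below 1 in 5 of 6 tables.

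In miR-21-5p the longer form was the lower one. The 23 nt alignment minus the 21 nt alignment with the same 5′ end gave -1.23, -0.85 and -1.06 at 13 d and -0.28, -2.42 and -0.80 at 31 d, below 0 in 6 of 6 tables. At 538 other 5′ ends the median of this difference was -0.53, and 24.2% were below 0 in all 6 tables. The same 23 minus 21 nt difference was below 0 in 6 of 6 later tables for miR-92b-3p (-1.68 to -0.50), miR-146b-5p (-2.04 to -0.32), miR-146b-3p (-2.197 to -0.47) and miR-330-5p (-1.11 to -0.18), and for the forms of miR-151a-3p that start at hairpin position 45 (-2.17 to -1.52). It was above 0 in 6 of 6 for miR-185-3p, at 0.37 to 2.08, as it was at 1.67% of the other 5′ ends. For miR-21-3p, miR-92b-5p, miR-151a-5p and miR-185-5p, and for miR-151a-3p from position 47, the difference had no constant sign. In some tables longer alignments had lower ratios across the genome: the median log2 ratio was -1.79 at 22 nt and 0.28 at 18 nt in the 13 d replicate 3 table, and -1.68 at 22 nt and 0.96 at 18 nt in the 31 d replicate 2 table. The part of this trend in the differences between forms was not tested.

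**Figure D4:**
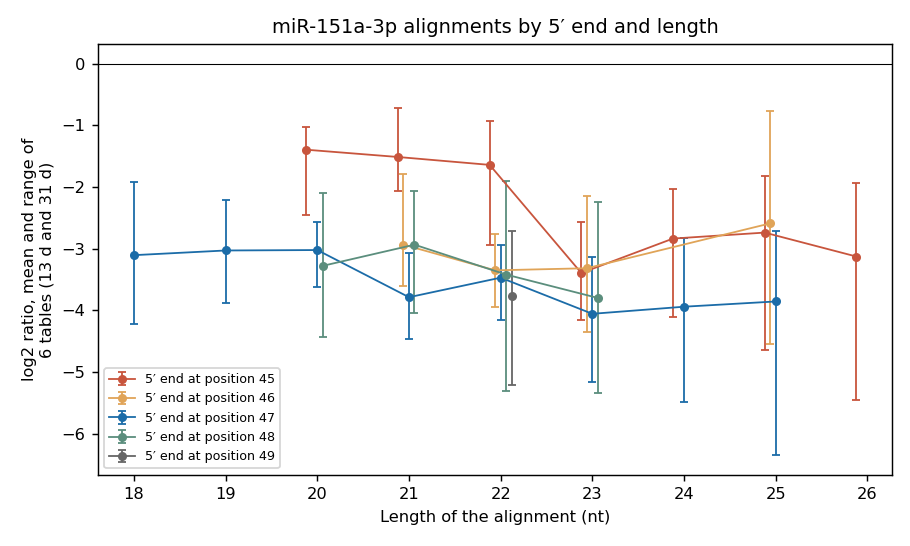
Log2 ratio of miR-151a-3p alignments by length, 1 line for each position of the 5′ end in the hairpin (45 to 49), as mean and range of the 6 tables of 13 d and 31 d. At 20 to 22 nt the alignments that start at position 45 have means of -1.64 to -1.40, above those that start at position 47, with -3.79 to -3.02.

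Within miR-151a-3p, which has 24 alignments with 5 different 5′ ends, the starting position went with the ratio. Alignments whose 5′ end lay at hairpin position 45, counted from 1 at the hairpin's 5′ end, start 2 nt upstream of those at position 47; they too were chosen after their values were seen. At 21 nt, the form from position 45 had a log2 ratio of 2.12 and 1.90 at 3 d, then -1.32, -1.93 and -1.995 at 13 d, and -0.72, -2.07 and -1.05 at 31 d. The form from position 47 had 2.05 and 1.62 at 3 d, then -3.48, -4.47 and -4.26 at 13 d, and -3.07, -4.09 and -3.36 at 31 d. The 2 forms overlapped at 3 d and were separate in all 6 later tables, where position 45 minus position 47 was 2.02 to 2.54. At 20 nt the difference was 1.11 to 2.60 and at 22 nt 1.22 to 2.197, again above 0 in 6 of 6 later tables, with 3 d means of 0.58 and -0.01. Other pairs of alignments with 5′ ends 2 nt apart had the upstream one above in all 6 later tables in 7.37% of 95 pairs at 20 nt, 8.70% of 115 at 21 nt and 7.09% of 141 at 22 nt. From 23 nt on the difference was smaller, with a mean of 0.66 at 23 nt. Since Dicer sets the 5′ end of a 3p arm and the seed is counted from it, forms that start at position 45 and 47 have different seeds.

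The highest and lowest forms of each arm over all 8 tables show how wide an arm was. For miR-185-5p the highest was the 20 nt form, with means of 1.17 at 3 d, -1.70 at 13 d and -1.43 at 31 d, and the lowest the 26 nt form, with 1.28, -3.31 and -3.82. For miR-330-5p the highest was also the 20 nt form, with 0.99, -1.14 and -2.04, and the lowest the 24 nt form, with 1.02, -2.86 and -3.31. For miR-92b-5p the lowest was the RefSeq form of 22 nt, with means of 1.67 at 3 d, -3.32 at 13 d and -0.75 at 31 d. For miR-146b-3p the highest was a 25 nt form, with 2.22, 1.33 and 1.66. At 3 d these highest and lowest forms of miR-185-5p and miR-330-5p lay close together, and they stood apart at 13 d and 31 d. The forms were picked by their mean over all 8 tables, most of which are of 13 d or 31 d. Standing apart at those times is therefore largely set by the pick, and no change with time is read from it.

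For the arm with more alignments in each hairpin, the island elsewhere with the most similar ratios was found by the Euclidean distance of the 8 log2 ratios. The island nearest to miR-151a-3p, on chr17:17774283-17774306 (hg19, plus strand), was at a distance of 0.746, with means of 1.76 at 3 d, then -3.51 at 13 d and -3.38 at 31 d. The island nearest to miR-185-5p, on chr14:65937871-65937895 (plus strand), was at 0.983, with 1.84, -3.11 and -3.01, and that nearest to miR-330-3p, on chr2:74126509-74126531 (minus strand), at 1.04, with 0.92, -3.50 and -3.002. The nearest to miR-92b-3p and miR-146b-5p both lay on chromosome X, on chrX:133303570-133303596 (minus strand) at 0.998 and chrX:65238778-65238804 (plus strand) at 0.945. The nearest to miR-21-5p lay on chr4:158512136-158512159 (minus strand) at 1.02. The tables pair no names with these islands, and none is given here.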

How the data were processed

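Small RNA libraries of K562 cells were compared in 8 tables, each for the Dox and the water library of 1 time and replicate number. The aligner was Bowtie2 2.2.9 and the build hg19, per the submitters' processing notes; the handling of reads that match several places is not given in the sources at hand. The value used was the ratio that the authors deposited for each alignment. The 32 other value columns carry no library name and were not used. Alignments with 0 reads in the denominator are not listed, and those with a ratio of 0 in any table were left out before taking log2, so RNAs absent from 1 library do not appear.

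The 6 hairpins, their windows and all comparisons were chosen with earlier results of these data known. Both arms of all 6 are named, with the RefSeq form, the highest and lowest form of an arm and the nearest island; forms picked after seeing values are marked in the text. Islands needed at least 3 alignments overlapping by at least 1 nt. Values were computed with Python 3.11.15, pandas 2.3.3 and numpy 2.4.6, and the grouping into islands was tested on simulated data. Replicates are labelled as independent biological replicates. Host genes are from GENCODE 29 (GRCh38), matched by name, and no coordinates were converted between builds.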

Additional observations from a re-analysis of the deposited data

Results flagged for a closer look

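For 10 arms every table of 13 d lay on the opposite side of a ratio of 1 from both tables of 3 d, and for 9 arms so did every table of 31 d. No count of islands that changed sides is given here, as deposited or centred, so nothing is read from these counts of arms. Over all islands, 60.8% were above a ratio of 1 in both 3 d tables. Below 1 were 39.2% in all 13 d tables and 43.7% in all 31 d tables. The differences between times were not tested, since the arms were chosen with these ratios known. For MIR151A, the log2 difference of 13 d minus 3 d was -5.22 for miR-151a-3p and -3.71 for miR-151a-5p, and that of 31 d minus 3 d was -5.11 and -4.02. For MIR185, 13 d minus 3 d gave -4.36 for miR-185-5p and -3.66 for miR-185-3p, and 31 d minus 3 d gave -4.45 and -3.52. For MIR330, 13 d minus 3 d gave -3.26 for miR-330-5p and -4.66 for miR-330-3p, and 31 d minus 3 d gave -4.02 and -3.93. For MIR92B, 13 d minus 3 d gave -4.07 for miR-92b-5p and -3.27 for miR-92b-3p, and 31 d minus 3 d gave -2.76 and -2.29. For MIR21, 13 d minus 3 d gave -3.13 for miR-21-5p and -2.18 for miR-21-3p, and 31 d minus 3 d gave -1.68 for miR-21-3p. Whole tables were shifted in the same sense: the island medians were 0.71 and 1.76 at 3 d and between -1.16 and 0.42 later. After centring, opposite signs in every table were seen for both MIR92B arms between 13 d and 3 d, and for miR-151a-3p at both later times. The centred differences of 31 d minus 3 d were 0.19 for miR-21-3p, the other way round, -0.89 for miR-92b-5p and -0.42 for miR-92b-3p, with overlap for all 3.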

How the results depend on the processing

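No paired analysis was possible because no result comes from a test; each ratio already sets the 2 libraries of a pair against each other. Centring each table on its islands changed most. The arms below a ratio of 1 in both 3 d tables became 1 in place of 0, and those above became 6 in place of 12. The arms below 1 in every table became 8 in place of 10 at 13 d and 6 in place of 9 at 31 d. Those above in all 31 d tables became 2 in place of 1. Of 36 arm means, 5 were counted as reversed by centring. They became -0.14 for miR-21-3p, -0.31 for miR-185-3p and -0.052 for miR-330-3p at 3 d, and 0.048 for miR-21-3p and 0.053 for miR-92b-3p at 31 d. Not counted among the 5 was miR-146b-5p at 13 d, which also changed sign, from -0.12 to 0.28, with an SD of 0.42 as deposited. A further 14 means moved by more than 1 SD. With the RefSeq alignment alone, 0 of 9 arms were above 1 in all 31 d tables, and 5 of 27 means moved. Among the 5 was miR-146b-5p, which went from -0.12 to -1.43 at 13 d and from 0.30 to -0.46 at 31 d. Leaving out 1 table gave 0 to 1 arms above 1 in every table at 13 d (1 without replicate 3) and 1 to 2 at 31 d (2 without replicate 1). Lengths of 20 to 24 nt and the main 5′ end alone moved no arm mean, and the mean over alignments moved 1. Requiring ratios above 0 only in the tables of the same time gave 8 arms below 1 in all 31 d tables in place of 9, and moved miR-21-3p at 31 d to -0.19. The cause of these changes was not tested. With 2 or 3 tables a time and no depth, SDs are rough.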
